A study of Mus musculus with 18 samples.

Results

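The unfolded protein response genes described here were 33 genes, chosen by name and found on the arrays as every probe set whose only annotated symbol was one of them. All 33 were measured, by 77 probe sets, among 18193 genes with 34945 probe sets. They comprised 15 endoplasmic reticulum (ER) chaperones and folding factors, 7 genes of ER-associated degradation, 8 genes of the PERK-ATF4 arm, and Ern1, Xbp1 and Atf6 of the IRE1-XBP1 and ATF6 arms. The study measured RNA on 18 Affymetrix arrays from dopamine neurons of 2 midbrain regions, the ventral tegmental area (VTA) and the substantia nigra (SN), collected by laser capture from adult C57Bl/6 mice that all carried the hTH-GFP transgene, a fluorescent reporter under the human tyrosine hydroxylase promoter. Mice received MPTP, a toxin that is taken up by dopamine neurons after its conversion in the brain, at 4 mg/kg for 2 or for 10 days, and controls received saline for 10 days. The saline groups are also called untreated in part of the labels. Brains were taken 7 days after the last injection in all groups. Each of the 6 groups (SN saline, SN 2 day, SN 10 day, VTA saline, VTA 2 day, VTA 10 day) had 3 arrays called biological replicates, and the labels state neither how many mice one array held nor whether an SN and a VTA array shared a mouse. The 2 day groups therefore had no saline group of their own length, and p-values measured the spread between these arrays.

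The unfolded protein response is the programme by which a cell answers a load of unfolded protein in the ER. PERK phosphorylates a translation initiation factor and favours ATF4, IRE1 splices the mRNA of Xbp1, and ATF6 is cut in the Golgi; XBP1 and ATF6 then raise ER chaperones and degradation factors, while ATF4 raises genes of amino acid supply and of the stress arm that includes Ddit3 (CHOP). Dopamine neurons are often studied for this response because dopaminergic toxins and misfolded alpha-synuclein have both been linked to it. The splicing of Xbp1, the cleavage of ATF6 and the phosphorylation of PERK are not seen on these arrays, which report total RNA of each gene.

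The deposited signals were log2 values in which each probe set had a median of 0 over the 18 arrays. A value was therefore a difference from the probe set's own median, with no absolute level, so no member could be called present or absent and levels could not be set against each other between genes. The same held for the labelled cell type, whose defining markers could not be checked for presence. Differences below are log2 differences between group means ± the standard error of the limma fit with n = 3 arrays a group. Array medians lay close to 0, and 2 arrays, SN saline 1 and VTA 2 day 1, had the widest spread over genes (median absolute deviation 0.235 and 0.269, against 0.123 to 0.204 on the other 16). In such material fewer neurons on a section and less RNA per neuron cannot be told apart.

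The clearest difference among the members was between the lengths of treatment. In both regions a group of ER chaperone genes stood lower after 10 days of MPTP than after 2 days. The comparison over both regions was added after the values were seen. In it Hspa5 fell by 0.51 ± 0.085 and Sdf2l1 by 0.99 ± 0.16 on the log2 scale, the only members that passed the test (limma, Benjamini-Hochberg adjusted p = 0.0188 for each). These were 2 of 23 genes called among 18193, a background of 0.126%. With all arrays of the 2 groups set against each other within each region, 8 members had every 10 day array below every 2 day array in both the SN and the VTA, namely Hspa5, Sdf2l1, Creld2, Manf, Pdia4, Dnajc3, Herpud1 and Xbp1, where 138 genes (0.759%) did so over the whole array. No member had every 10 day array above every 2 day array in both regions, against 144 genes (0.792%).

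**Figure D1:**
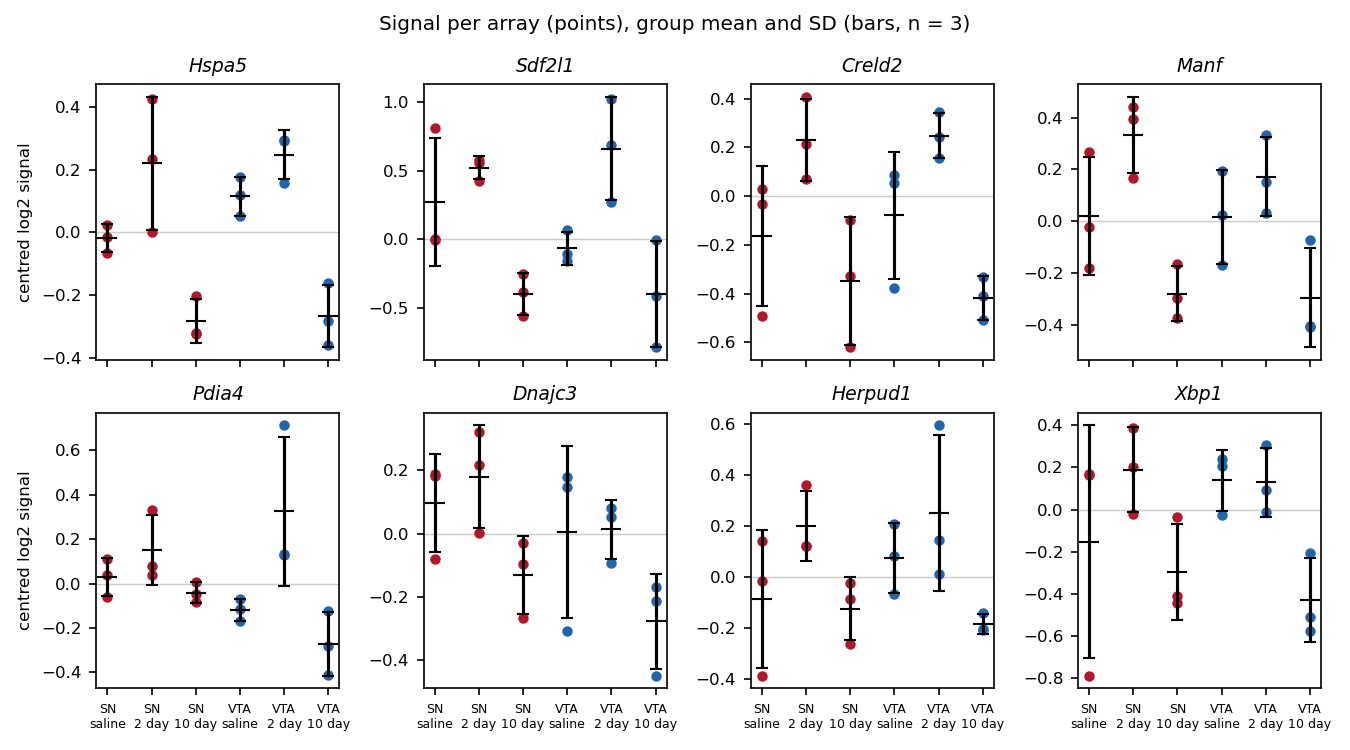
Centred log2 signal (vertical axis) of the 8 members whose 2 day and 10 day arrays did not overlap in either region, in each of the 6 groups; points are arrays, bars the group mean and SD of 3 arrays, red for SN and blue for VTA. In every panel the 10 day points lie below the 2 day points of the same region, while the saline points overlap one or both groups in most panels.

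Hspa5 encodes BiP, the ER member of the Hsp70 family that binds unfolded chains and holds the 3 stress sensors inactive. In the SN its signal was 0.0023, 0.23 and 0.43 on the 2 day arrays and -0.20, -0.32 and -0.32 on the 10 day arrays. In the VTA it was 0.16, 0.29 and 0.29 after 2 days and -0.28, -0.36 and -0.16 after 10 days. All 6 arrays of the 10 day groups were below 0 and none of the 6 arrays of the 2 day groups was. The difference was -0.50 ± 0.12 in the SN and -0.52 ± 0.12 in the VTA (1.42-fold and 1.43-fold lower), and neither region alone passed the test (limma, Benjamini-Hochberg adjusted p = 0.742 and 0.288). Its 3 probe sets all ran the same way, from -0.62 to -0.44 in the SN and from -0.55 to -0.50 in the VTA.

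Sdf2l1 encodes a small partner of the ER co-chaperone complex that works with BiP, and showed the widest difference of any member. Its SN signal was 0.56, 0.58 and 0.42 after 2 days and -0.56, -0.25 and -0.38 after 10 days. Its VTA signal was 0.27, 0.68 and 1.02 after 2 days and -0.41, -0.78 and -0.01 after 10 days. The groups were well apart in the SN, and in the VTA the highest 10 day array, at -0.01, lay under the lowest 2 day array, at 0.27. The difference was -0.92 ± 0.23 in the SN (1.89-fold lower) and -1.06 ± 0.23 in the VTA (2.08-fold lower), from 1 probe set (limma, Benjamini-Hochberg adjusted p = 0.838 and 0.24).

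The calls over both regions were close to the threshold and rested on counting the SN and VTA arrays as separate samples. With group means removed, the SN and VTA array of one treatment and number correlated at a median of 0.22. Arrays of different groups and numbers had a median of -0.04. When the SN and VTA array of one treatment and replicate number were averaged into 1 value, as would be right if they came from the same mice, neither gene passed (limma, Benjamini-Hochberg adjusted p = 0.385 for Hspa5 and 0.178 for Sdf2l1). With the probe set of largest SD in place of the mean, the adjusted p of Hspa5 was 0.468. Over all settings the limma, Benjamini-Hochberg adjusted p ran from 0.0021 to 0.468 for Hspa5 and from 0.0020 to 0.178 for Sdf2l1. The call of Hspa5 was also lost on leaving out any one of SN 2 day 2 or 3, SN 10 day 2 or 3, VTA 2 day 2 or 3 or VTA 10 day 1 or 2 (limma, Benjamini-Hochberg adjusted p 0.0534 to 0.0745, difference -0.51 to -0.46), and that of Sdf2l1 on leaving out any SN 2 day or SN 10 day array, VTA 2 day 2 or 3 or VTA 10 day 1 or 2 (limma, Benjamini-Hochberg adjusted p 0.0518 to 0.0714, difference -1.02 to -0.89).

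Creld2 and Manf, both encoding ER proteins that can be secreted under stress, also had separate arrays in both regions. Creld2 was at 0.21, 0.41 and 0.07 in the SN after 2 days and at -0.62, -0.10 and -0.33 after 10 days. Its VTA signal was 0.24, 0.16 and 0.34 after 2 days and -0.33, -0.41 and -0.51 after 10 days. All 2 day arrays were thus above 0 and all 10 day arrays below it. Creld2 differed by -0.62 ± 0.12 over both regions and missed the threshold (limma, Benjamini-Hochberg adjusted p = 0.0645).

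Manf, named for its support of dopamine neurons in culture, had the same order of arrays. Its SN signal was 0.17, 0.39 and 0.44 after 2 days and -0.16, -0.37 and -0.30 after 10 days. The VTA gave 0.03, 0.33 and 0.15 after 2 days and -0.41, -0.41 and -0.07 after 10 days. The groups were further apart in the SN, at -0.61 ± 0.15, than in the VTA, at -0.47 ± 0.15, although the difference between regions was itself within its error (0.14 ± 0.22). Over both regions Manf differed by -0.54 ± 0.11 (limma, Benjamini-Hochberg adjusted p = 0.0645).

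Pdia4, a disulphide isomerase of the ER, was at 0.08, 0.33 and 0.04 in the SN after 2 days and at -0.05, 0.01 and -0.09 after 10 days. In the VTA it was at 0.71, 0.13 and 0.13 after 2 days and at -0.41, -0.28 and -0.12 after 10 days, with VTA 2 day 1 far above the rest. The difference was -0.19 ± 0.15 in the SN, where its 2 probe sets ran opposite ways, and -0.60 ± 0.15 in the VTA, where both were lower. Without the 2 arrays of widest spread, of which VTA 2 day 1 is one, the VTA difference was -0.40. Dnajc3 encodes p58IPK, an ER co-chaperone that also restrains PERK, and differed by -0.31 ± 0.15 and -0.29 ± 0.15 in the SN and VTA. The SN arrays of Dnajc3 spanned 0.0035 to 0.32 after 2 days and -0.27 to -0.03 after 10 days, and the VTA arrays -0.09 to 0.08 and -0.45 to -0.17. Over both regions neither passed (limma, Benjamini-Hochberg adjusted p = 0.255 for Pdia4 and 0.511 for Dnajc3).

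The other ER chaperones and folding factors did not share the difference in size. Hsp90b1 (GRP94), the ER form of Hsp90 and usually induced with BiP, differed by -0.10 ± 0.10 over both regions. The lectin chaperones Calr and Canx were at -0.01 ± 0.12 and -0.01 ± 0.086, and Pdia3, the disulphide isomerase that works with them, was at 0.21 ± 0.14. The 2 probe sets of Pdia3 ran opposite ways in each region, so that its mean describes neither. For Canx the 95% interval of the difference, -0.20 to 0.17, did not reach the estimate of Hspa5. Pdia6 varied too widely to place, with an interval from -0.65 to 0.45. The ER J-domain proteins Dnajb9 and Dnajb11 were at -0.16 ± 0.12 and -0.20 ± 0.088, the large chaperone Hyou1 at -0.12 ± 0.11, and Sec61b, a subunit of the translocation channel, at 0.16 ± 0.14.

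In the degradation arm, Herpud1, an ER membrane protein that gathers the ubiquitin ligase complex, came closest to the chaperones. It was at 0.36, 0.12 and 0.12 in the SN after 2 days and at -0.26, -0.09 and -0.02 after 10 days. Its VTA arrays were at 0.59, 0.01 and 0.14 after 2 days and -0.20, -0.14 and -0.21 after 10 days. VTA 2 day 2, at 0.01, was the 2 day array nearest to the 10 day groups. Herpud1 differed by -0.38 ± 0.12 over both regions (limma, Benjamini-Hochberg adjusted p = 0.384). Its VTA difference of -0.43 ± 0.16 was -0.26 without VTA 2 day 1. Sel1l, the adaptor of the ligase encoded by Syvn1, was at 0.20, 0.11 and 0.16 in the SN after 2 days and at 0.0004, -0.32 and -0.29 after 10 days, a difference of -0.36 ± 0.14 shared in direction by its 5 probe sets. In the VTA its arrays overlapped (-0.11 ± 0.14), and the difference between the regions was 0.24 ± 0.19. Over both regions Syvn1 was at -0.10 ± 0.13, and the derlins, which help move substrates out of the ER, were at -0.02 ± 0.090 for Derl1, -0.21 ± 0.12 for Derl2 and -0.23 ± 0.13 for Derl3. Edem1, a lectin that marks glycoproteins for degradation, was the one gene of the arm on the higher side (0.21 ± 0.17), with VTA 2 day 1 at -1.17.

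Xbp1, the transcription factor of the IRE1 arm, was lower after 10 days in both regions. Its SN arrays were at -0.02, 0.20 and 0.38 after 2 days and -0.45, -0.41 and -0.04 after 10 days. Its VTA arrays were at -0.01, 0.31 and 0.09 after 2 days and -0.58, -0.51 and -0.20 after 10 days. The gap was narrow in the SN, where the lowest 2 day array stood at -0.02 and the highest 10 day array at -0.04, and all 4 probe sets had the same sign in each region. The difference was -0.49 ± 0.22 and -0.56 ± 0.22 (both regions limma, Benjamini-Hochberg adjusted p = 0.366). The sensors were close to 0 over both regions, with Atf6 at -0.06 ± 0.12, Ern1, which encodes IRE1, at 0.13 ± 0.092, and Eif2ak3, which encodes PERK, at -0.02 ± 0.10.

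In the PERK-ATF4 arm none of the 8 genes had separate 2 day and 10 day arrays in either region. Over all genes the share with separate arrays was 5.02% lower and 6.1% higher in the SN, and 5.13% and 5.11% in the VTA, so that 0 of 8 is near the background. Atf4, the transcription factor of the arm, was at 0.09, -0.14 and 0.09 in the SN after 2 days and at 0.14, -0.14 and -0.26 after 10 days. In the VTA its arrays stood at 0.20, 0.01 and 0.01 after 2 days and at 0.04, 0.02 and 0.04 after 10 days. Its difference over both regions was -0.07 ± 0.091. Ddit3, which encodes the pro-apoptotic factor CHOP, was the lowest of the arm at -0.28 ± 0.16, with overlapping arrays and both probe sets below 0 in each region. Trib3, Chac1 and Asns were on the higher side at 0.12 ± 0.18, 0.30 ± 0.19 and 0.10 ± 0.10. For Chac1, VTA 2 day 1 stood at -1.10, with VTA 2 day 2 and 3 at -0.33 and 0.13. Ppp1r15a (GADD34, a phosphatase subunit that ends the translation block) and Sesn2 were at -0.0031 ± 0.11 and -0.08 ± 0.20.

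**Figure D2:**
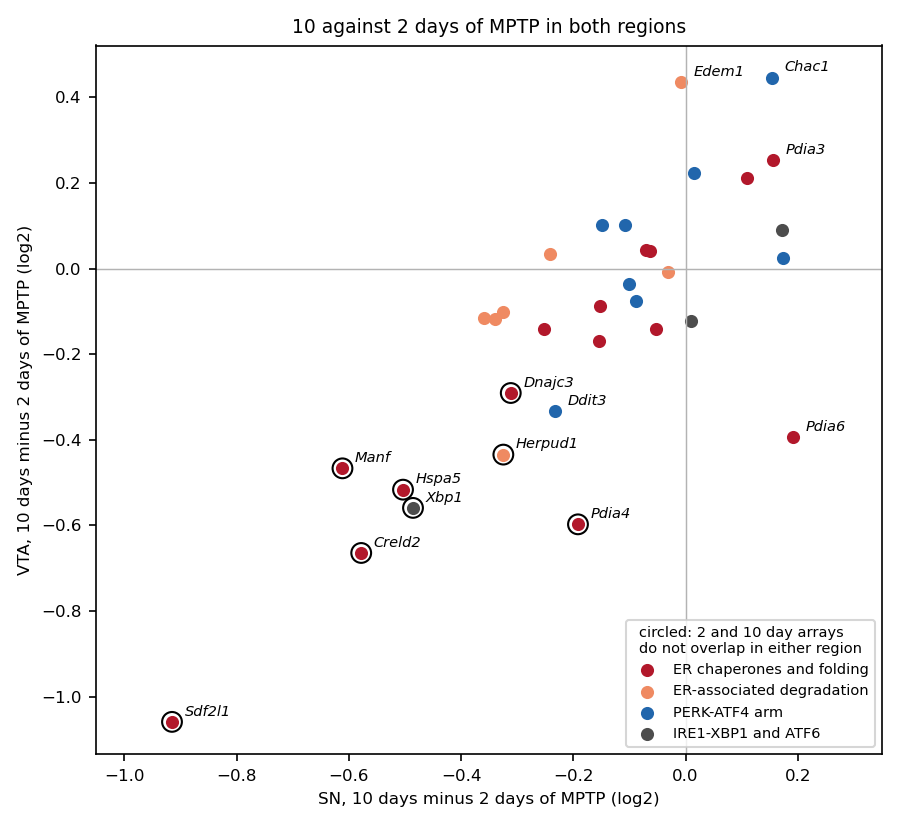
Difference between 10 and 2 days of MPTP (log2) in the SN (horizontal axis) and the VTA (vertical axis) for the 33 members, coloured by arm; circles mark the 8 genes whose arrays did not overlap in either region. The 8 circled genes lie in the lower left, Sdf2l1 furthest out, and the genes of the PERK-ATF4 arm lie around the centre and upper right, apart from Ddit3.

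Counted by arm, 10 of 15 chaperone genes, 5 of 7 degradation genes and 3 of 8 PERK-ATF4 genes were lower after 10 than after 2 days in both regions. Of all genes, 47.88% were lower in the SN and 49.95% in the VTA, and the share lower in both was not counted. In the SN the median difference was -0.16 for the chaperones, -0.32 for the degradation genes, -0.10 for the PERK-ATF4 arm and -0.15 for all members, against 0.01 for all genes. In the VTA the medians were -0.17, -0.10, 0.06 and -0.10, against 0.0002. The medians of the chaperone and degradation genes kept their sign under both other scalings of the arrays; that of the PERK-ATF4 arm in the SN was 0.05 with 1 probe set a gene.

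Within the SN, 0 members were called between 10 and 2 days, against 3 of all genes (0.0165%), and 6 members had an unadjusted p under 0.05 (background 549 genes, 3.02%). Arrays did not overlap for 12 members there, 11 lower and 1 higher after 10 days, against 5.02% and 6.1% of all genes. Beside the genes above, the lower ones were Dnajb11 and Derl2, and the higher one was Pdia6. The 2 probe sets of Pdia6 ran opposite ways in the SN, so that its higher mean there describes neither. Within the VTA 0 members were called, against 6 genes (0.033%), and 7 had an unadjusted p under 0.05 (1154 genes, 6.34%). Arrays were separate for 8 members, all lower after 10 days, against 5.13% of genes lower and 5.11% higher. Over both regions 10 members had an unadjusted p under 0.05 (1272 genes, 6.99%).

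The dopamine neuron markers stood the other way between these lengths. Of 12 markers 11 were higher after 10 than after 2 days in the SN (median 0.38) and 10 in the VTA (median 0.34), none called by limma. Their mean signal per array ran from -0.48 to -0.13 on the SN 2 day arrays and from -0.18 to 0.28 on the SN 10 day arrays, and in the VTA from -0.56 to 0.14 and from -0.32 to 0.54. Marker lists of other cells had medians between -0.19 and 0.21 in the SN, and between -0.22 and 0.23 in the VTA. The part of cell composition in the lower chaperone signals was not tested.

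**Figure D3:**
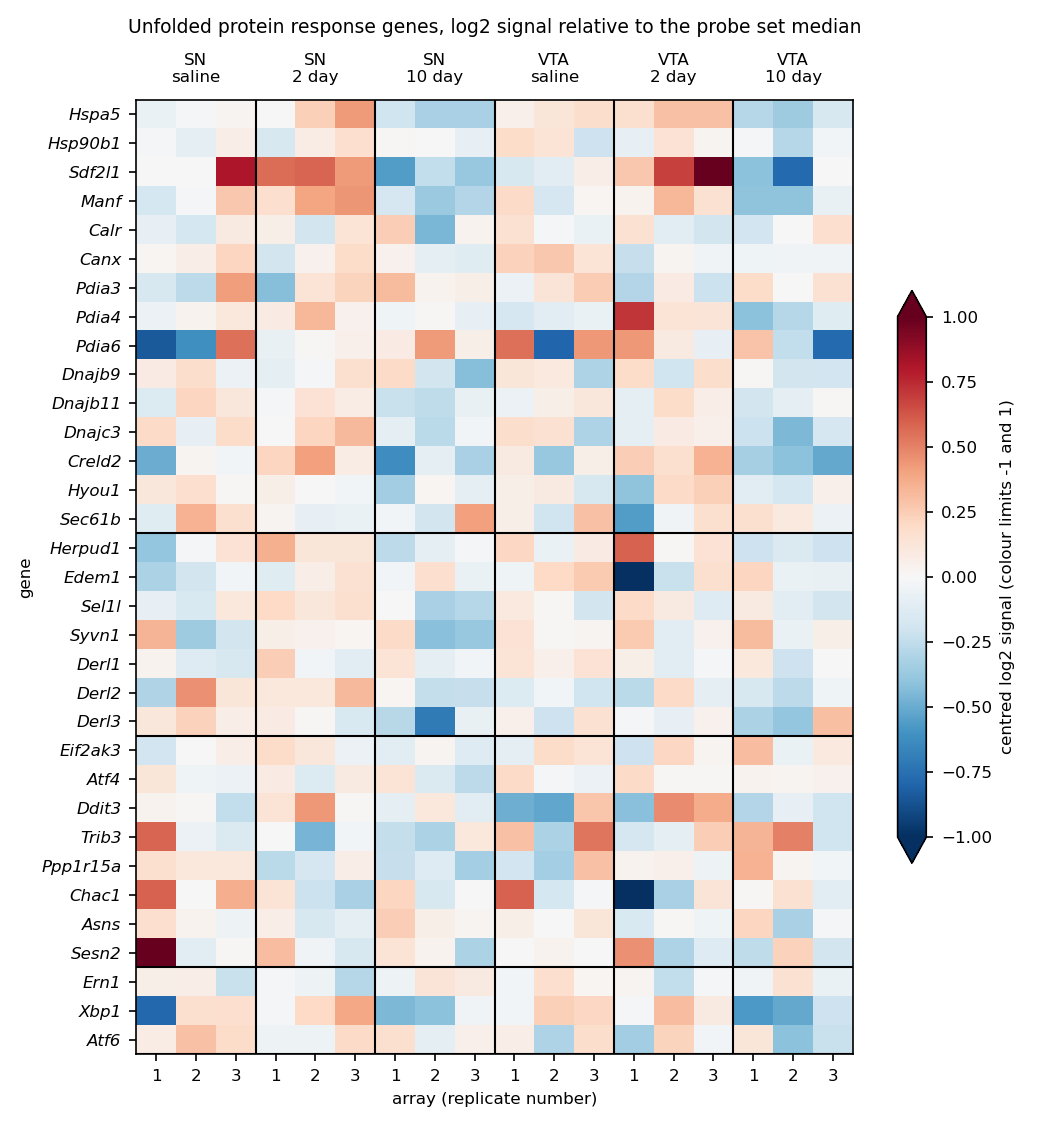
Centred log2 signal of the 33 members (rows, by arm) on the 18 arrays (columns, by group), with colour limits at -1 and 1. Hspa5, Sdf2l1, Creld2 and Manf are on the high side on the 2 day arrays of both regions and on the low side on the 10 day arrays, whereas the rows of the PERK-ATF4 arm show no such blocks.

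Against saline, 0 members were called at either length in either region. The comparisons of 2 and of 10 days with saline share the saline arrays of their region, so their values are given side by side only. Manf was at 0.31 ± 0.15 after 2 days and -0.30 ± 0.15 after 10 days in the SN, and at 0.16 ± 0.15 and -0.31 ± 0.15 in the VTA. Creld2 was at 0.40 ± 0.17 and -0.18 ± 0.17 in the SN, and at 0.33 ± 0.17 and -0.34 ± 0.17 in the VTA. For both genes the saline arrays lay between the other groups or overlapped them.

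After 2 days in the SN, 1 member had an unadjusted p under 0.05 (1210 genes, 6.65%), where 0 of all genes were called (0%). Creld2 was that member, at -0.49, 0.03 and -0.03 on the saline arrays and 0.21, 0.41 and 0.07 after 2 days. Every 2 day array was above every saline array, by 0.40 ± 0.17 on average (limma, Benjamini-Hochberg adjusted p = 0.719). Without SN saline 1, at -0.49, the difference was 0.23. Arrays did not overlap for 2 members that were higher, Creld2 and Sel1l (background 5.96%), and for 1 that was lower, Ppp1r15a (8.56%). The medians were 0.06 for chaperones, 0.12 for degradation genes and -0.18 for the PERK-ATF4 arm, against -0.03 for all genes. Hspa5 was at -0.06, -0.01 and 0.03 on the saline arrays and differed by 0.24 ± 0.12, with Xbp1 at 0.34 ± 0.22, Ddit3 at 0.27 ± 0.23 and Atf4 at 0.01 ± 0.13. Xbp1 on the saline arrays was at -0.79, 0.16 and 0.17, and the low first value came from SN saline 1, one of the arrays of widest spread, without which the difference was 0.02. Without SN 2 day 3 that of Hspa5 was 0.14, and without SN 2 day 2 that of Ddit3 was 0.15. The 2 probe sets of Ddit3 ran opposite ways, at -0.32 and 0.85, so that its mean describes neither. In this comparison the dopamine neuron markers were lower in 12 of 12 cases, with a median of -0.96, and 7 of 9 astrocyte markers were higher (median 0.26).

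After 2 days in the VTA, Sdf2l1 was the member furthest from saline. Its signal was -0.16, -0.11 and 0.07 on the saline arrays and 0.27, 0.68 and 1.02 after 2 days, a difference of 0.73 ± 0.23 without overlap (limma, Benjamini-Hochberg adjusted p = 0.42). Pdia4 was at -0.17, -0.12 and -0.07 on saline arrays, all below the 2 day arrays (0.44 ± 0.15; limma, Benjamini-Hochberg adjusted p = 0.451). Without VTA 2 day 1 the difference of Pdia4 was 0.25. Canx was the opposite case, at 0.23, 0.27 and 0.14 with saline and -0.23, 0.03 and -0.03 after 2 days (-0.29 ± 0.12; limma, Benjamini-Hochberg adjusted p = 0.576). With Creld2 there were 3 higher members without overlap (background 5.1%), and Canx was the 1 lower (4.92%). No member was called, against 2 genes (0.011%), and 5 had an unadjusted p under 0.05 (1467 genes, 8.06%). Hspa5 differed by 0.13 ± 0.12, Xbp1 by -0.01 ± 0.22, Ddit3 by 0.38 ± 0.23 and Atf4 by 0.03 ± 0.13. The remaining members under 0.05 were Edem1 (-0.55 ± 0.24) and Chac1 (-0.57 ± 0.27), both with overlapping arrays and with VTA 2 day 1 at -1.17 and -1.10. Medians were 0.01 for chaperones, 0.01 for degradation genes and -0.04 for the PERK-ATF4 arm, against -0.01 for all genes. The probe sets of Ddit3 were at 0.02 and 0.75. Beside these, 11 of 12 dopamine neuron markers (median -0.44), 8 of 8 oligodendrocyte markers (median -0.32), 8 of 9 astrocyte markers (median -0.16) and 7 of 9 microglia markers (median -0.34) were lower than with saline, and 7 of 7 ependyma and choroid plexus markers were higher (median 0.51). Their part in the members' differences was not tested.

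After 10 days in the SN, 26 of 33 members were lower than with saline, where 53.4% of all genes were, and 4 were lower without overlap (background 6.27%), none higher (5%). They were Sdf2l1, Derl3, Ppp1r15a and Hspa5, also the 4 members with an unadjusted p under 0.05 (1013 genes, 5.57%), and none was called, against 1 gene (0.0055%). Sdf2l1 was at 0.0027, -0.0027 and 0.81 with saline, where SN saline 3 stood far above the other arrays, and differed by -0.66 ± 0.23, or by -0.39 without that array. Derl3 was at 0.11, 0.23 and 0.06 with saline and -0.28, -0.71 and -0.08 after 10 days (-0.49 ± 0.18, and -0.31 without SN 10 day 2). Ppp1r15a was at 0.16, 0.11 and 0.11 with saline and at -0.23, -0.13 and -0.34 after 10 days (-0.36 ± 0.16). Hspa5 differed by -0.27 ± 0.12, Xbp1 by -0.15 ± 0.22, Ddit3 by 0.03 ± 0.23 and Atf4 by -0.09 ± 0.13. The 2 probe sets of Ddit3 were at -0.66 and 0.73, opposite in sign, so the value near 0 is their mean only. Without SN saline 1 the difference of Xbp1 was -0.46, and without SN saline 3 it was 0.02. The limma, Benjamini-Hochberg adjusted p of the 4 separate genes lay between 0.84 and 0.889. The median was -0.18 for chaperones, -0.13 for degradation genes and -0.18 for the PERK-ATF4 arm, against -0.02 for all genes. All 12 dopamine neuron markers were lower than with saline (median -0.47), as were 8 of 8 oligodendrocyte markers (median -0.29), while 7 of 9 astrocyte markers (median 0.20) and 5 of 7 ependyma and choroid plexus markers (median 0.29) were higher. Their part in the members' differences was not tested.

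After 10 days in the VTA, 26 of 33 members were also lower than with saline, where 50.9% of all genes were, and 4 were so without overlap (background 4.53%), namely Hspa5, Xbp1, Canx and Herpud1, with 0 higher (4.77%). Hspa5 was at 0.05, 0.12 and 0.18 with saline, above every 10 day array (-0.38 ± 0.12; limma, Benjamini-Hochberg adjusted p = 0.673). Xbp1 was at -0.03, 0.24 and 0.21 with saline (-0.57 ± 0.22; limma, Benjamini-Hochberg adjusted p = 0.815). These were the 2 members with an unadjusted p under 0.05 (985 genes, 5.41%), and neither was among the 2 genes called (0.011%). Ddit3 and Atf4 were at 0.05 ± 0.23 and -0.0044 ± 0.13, with the probe sets of Ddit3 again opposite in sign, at -0.30 and 0.41. The median was -0.15 for chaperones, -0.11 for degradation genes and 0.02 for the PERK-ATF4 arm, against -0.005 for all genes, and 11 of 12 dopamine neuron markers were lower than with saline (median -0.22), as were 7 of 8 oligodendrocyte markers (median -0.24), with 5 of 7 ependyma and choroid plexus markers higher (median 0.31).

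**Figure D4:**
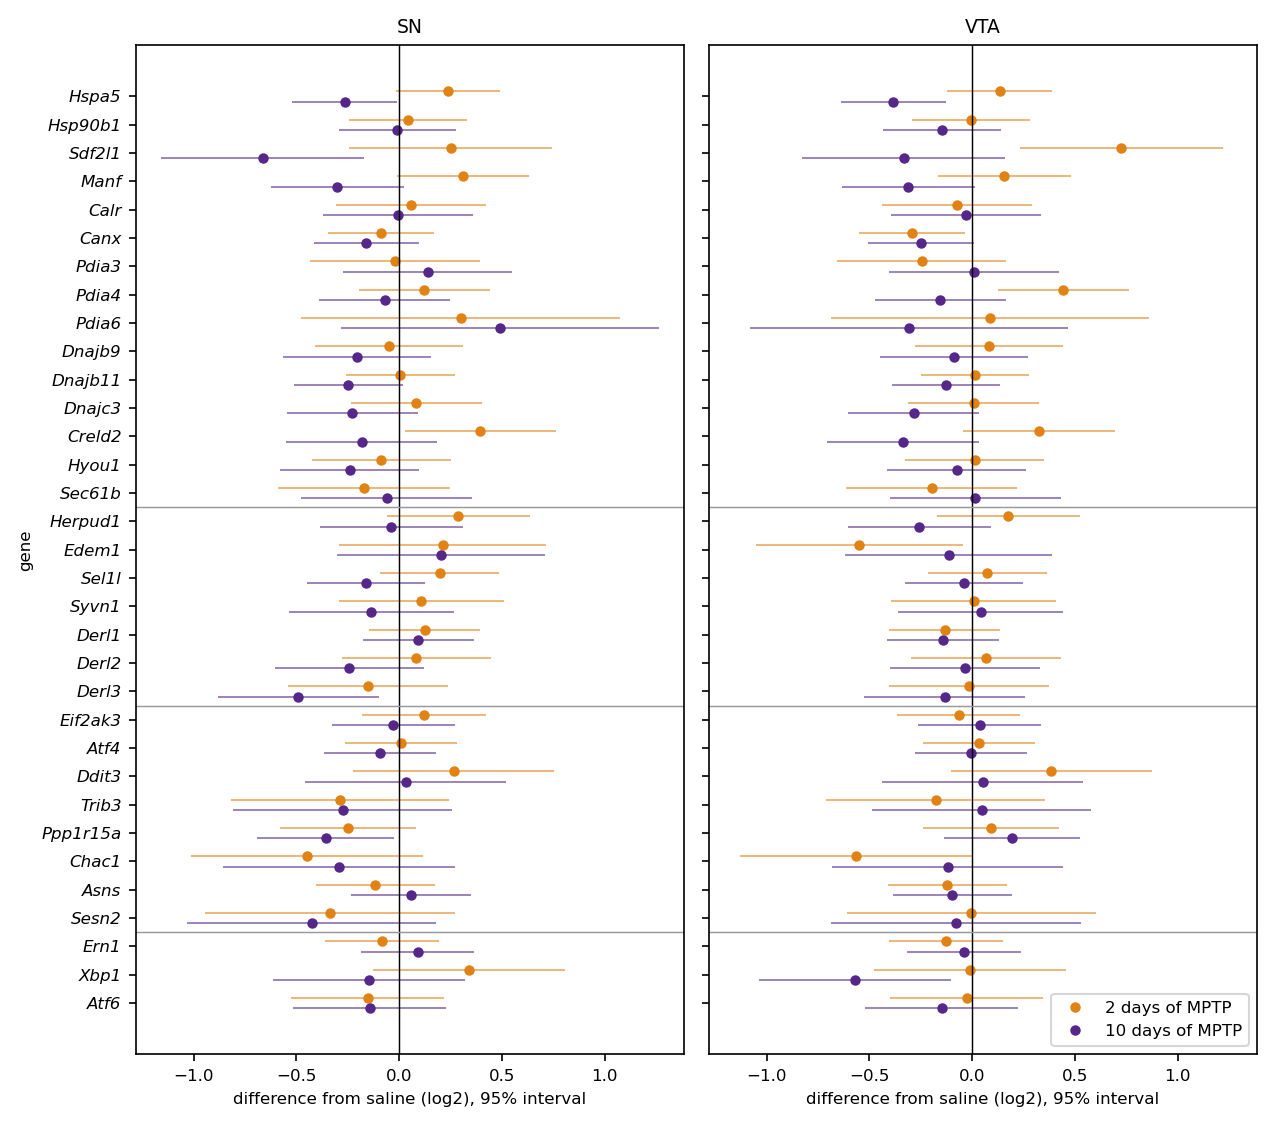
Difference from saline (log2, horizontal axis) with its 95% interval for each member (rows, arms divided by grey lines) after 2 days (orange) and 10 days (purple) of MPTP, in the SN (left) and the VTA (right). For Hspa5, Sdf2l1, Manf and Creld2 the orange point lies right of 0 and the purple point left of it in both regions. That order of points held for 16 of 33 members in the SN and 14 in the VTA, and the share over all genes was not counted. Most intervals cross 0, and every interval of Manf does. Intervals that do not cross 0 include Creld2 after 2 days and Hspa5 and Sdf2l1 after 10 days in the SN. In the VTA they include Sdf2l1 after 2 days and Hspa5 after 10 days.

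Between the regions the members differed little. With saline, 0 members and 0 genes were called (0%), and 0 members had an unadjusted p under 0.05 (794 genes, 4.36%), with a median of 0.02 for VTA minus SN. After 2 days no member was called or had an unadjusted p under 0.05 (genes 0% called, 508 or 2.79% under 0.05), and the median was -0.02. After 10 days no member was called (0%) and Ppp1r15a was the 1 member under 0.05 (544 genes, 2.99%), at -0.23, -0.13 and -0.34 in the SN and 0.34, 0.03 and -0.03 in the VTA (0.35 ± 0.16; limma, Benjamini-Hochberg adjusted p = 0.9999).

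The response to MPTP was also compared between regions directly, as the VTA change from saline minus the SN change. After 2 days no member was called (0%) and 1 had an unadjusted p under 0.05 (601 genes, 3.3%), Edem1 at -0.76 ± 0.34. Its SN arrays were at -0.32, -0.18 and -0.03 with saline and at -0.12, 0.07 and 0.15 after 2 days. Its VTA arrays were at -0.04, 0.20 and 0.26 with saline and at -1.17, -0.22 and 0.16 after 2 days, with VTA 2 day 1 far below the rest. Without VTA 2 day 1 the difference between regions was -0.38. After 10 days no member was called (0%), and the 1 under 0.05 (576 genes, 3.17%) was Ppp1r15a at 0.55 ± 0.22, whose VTA saline arrays were at -0.19, -0.34 and 0.29. For the step from 2 to 10 days, no member was called (0%) or had an unadjusted p under 0.05 (349 genes, 1.92%). For Hspa5 this difference between regions was -0.01 ± 0.17 with a 95% interval from -0.37 to 0.35, and for Sdf2l1 it was -0.14 ± 0.33 with an interval from -0.84 to 0.55.

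A further 85 genes of the pathway, listed by function, were measured of 91 listed. Between 10 and 2 days none was called and 7 had an unadjusted p under 0.05 over both regions (6.99% of all genes), a count near the background, and their median difference was 0.01 in each region. Ppp1r15b, the constitutive partner of Ppp1r15a, was the one whose arrays were lower without overlap in both regions (-0.33 ± 0.12). In the VTA Cebpg, a bZIP partner of ATF4, was at 0.35 ± 0.14 and the arginine transporter Slc7a3 at 0.44 ± 0.20. Against saline, Wfs1, an ER membrane gene mutated in Wolfram syndrome, was at 0.66 ± 0.21 and the J-domain gene Dnajc1 at 0.43 ± 0.18 after 2 days in the SN. The stress gene Ddit4 was at -0.48 ± 0.13 and the ubiquitin-conjugating enzyme Ube2g2 at -0.46 ± 0.16 after 10 days there, and Atf6b, the paralogue of Atf6, at 0.51 ± 0.19 after 2 days in the VTA. Of the 85, the number under 0.05 against saline was 4 after 2 days in the SN (6.65% of all genes) and 8 after 10 days (5.57%), and in the VTA 5 (8.06%) and 0 (5.41%), and none was called (limma). The genes named from this list therefore come from counts that were mostly at or near the background.

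The promoters of the members were read from RefSeq windows (GRCm38.p6) that run from 250 bases before to 50 after each gene start, which were held for 29 of the 33. The element through which ATF6 and XBP1 are known to act is the ER stress response element, ERSE, here CCAAT, then any 9 bases, then CCACG, on either strand. It was matched in 9 of 29 members, against 37 of 27025 genes with a window (0.137%). Several members, among them Hspa5, Hsp90b1 and Calr, are the genes in which the element was first described, so the share is no independent finding. The matches lay 7 among 13 chaperone windows, 2 among 6 degradation windows, 0 among 8 PERK-ATF4 windows and 0 for Xbp1 and Ern1. The related ERSE-II, here ATTGG, 1 base, CCACG, was matched in Herpud1 and Dnajb11, against 12 genes (0.0444%). The matched sites are shown to set the elements of genes with separate 2 day and 10 day arrays beside those of other members, read along the strand of the match, with the fixed bases in capitals and the bases between them in lower case.
Hspa5 ERSE, chr2:34772025-34772043: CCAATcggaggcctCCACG
Calr ERSE, chr8:84847075-84847093: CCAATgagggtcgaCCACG
Herpud1 ERSE-II, chr8:94386377-94386387: ATTGGgCCACG
Derl3 ERSE, chr10:75893242-75893260: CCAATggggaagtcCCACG
Hsp90b1 ERSE, chr10:86705638-86705656: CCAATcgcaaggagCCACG
Hsp90b1 ERSE, chr10:86705533-86705551: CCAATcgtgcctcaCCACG
Canx ERSE, chr11:50325800-50325818: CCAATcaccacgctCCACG
Pdia6 ERSE, chr12:17266491-17266509: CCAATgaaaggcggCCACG
Dnajc3 ERSE, chr14:118937827-118937845: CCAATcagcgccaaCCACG
Creld2 ERSE, chr15:88819520-88819538: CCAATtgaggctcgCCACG
Dnajb11 ERSE-II, chr16:22857852-22857862: ATTGGcCCACG
Syvn1 ERSE, chr19:6046532-6046550: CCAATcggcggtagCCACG

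The upstream 250 bases are shown for 3 chaperones with different numbers of matches: Hspa5 with 1 ERSE (chr2:34771840-34772089, + strand), Sdf2l1 with none (chr16:17132384-17132633, - strand) and Hsp90b1 with 2 (chr10:86705445-86705694, - strand). Each is written along the gene's strand and ends at the base before the gene start. Capitals mark an ERSE match on either strand. Only exact matches were counted, so an element with a changed base stays in lower case.
Hspa5: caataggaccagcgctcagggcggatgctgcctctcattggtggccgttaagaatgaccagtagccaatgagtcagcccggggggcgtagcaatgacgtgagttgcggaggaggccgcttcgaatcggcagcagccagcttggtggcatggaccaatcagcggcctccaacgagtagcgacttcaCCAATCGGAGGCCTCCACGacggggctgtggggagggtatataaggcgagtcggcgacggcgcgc
Sdf2l1: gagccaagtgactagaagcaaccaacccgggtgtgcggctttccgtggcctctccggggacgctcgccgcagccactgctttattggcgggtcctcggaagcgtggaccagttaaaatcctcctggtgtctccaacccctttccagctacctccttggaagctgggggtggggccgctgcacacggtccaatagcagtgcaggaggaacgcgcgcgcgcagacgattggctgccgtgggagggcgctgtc
Hsp90b1: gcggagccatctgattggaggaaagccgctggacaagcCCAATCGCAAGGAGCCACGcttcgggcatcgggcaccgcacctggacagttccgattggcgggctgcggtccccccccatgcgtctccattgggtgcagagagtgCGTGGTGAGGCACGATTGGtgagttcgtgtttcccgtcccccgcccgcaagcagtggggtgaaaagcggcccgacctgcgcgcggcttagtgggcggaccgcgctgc

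**Figure D5:**
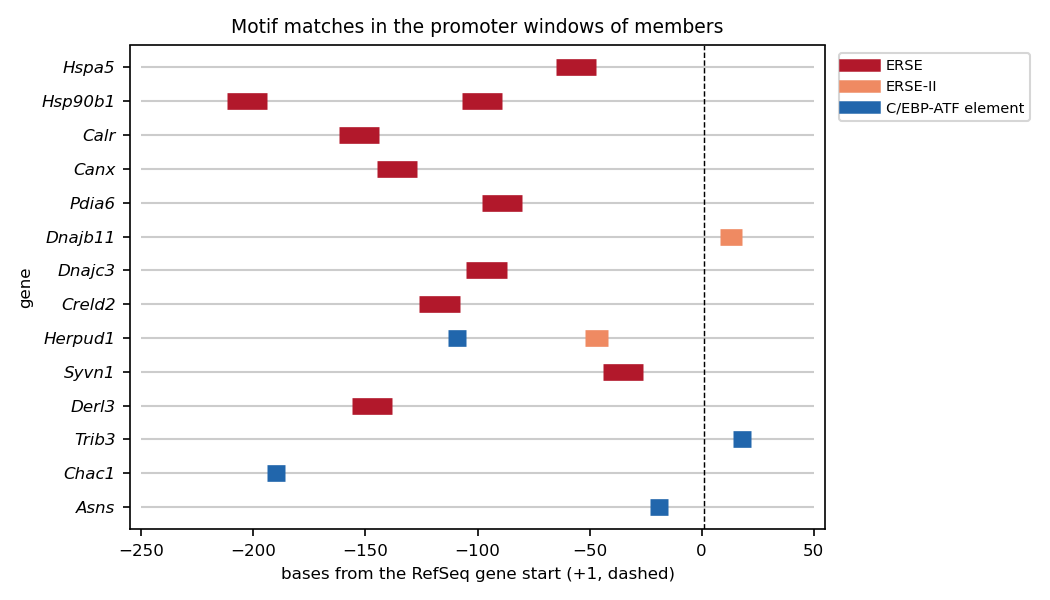
Positions of motif matches (bars) along the promoter windows of the 14 members with any ERSE, ERSE-II or C/EBP-ATF match, in bases from the RefSeq gene start. ERSE matches lie between -212 and -26 in chaperone and degradation genes, and C/EBP-ATF matches in Herpud1, Trib3, Chac1 and Asns.

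Of the 8 genes that were lower after 10 days in both regions without overlap, Hspa5, Creld2 and Dnajc3 had an ERSE and Herpud1 an ERSE-II, Sdf2l1, Pdia4 and Xbp1 had no match of either, and Manf had no window in the table. Among the other 6 genes with an ERSE, the difference between 10 and 2 days over both regions ran from -0.23 ± 0.13 for Derl3 to -0.01 ± 0.12 for Calr, including Hsp90b1, whose window has 2, and Dnajb11, with an ERSE-II, was at -0.20 ± 0.088. Whether matches and differences go together was not tested. The UPRE core TGACGTGG was in no member's window and in 0.714% of genes. The C/EBP-ATF element bound by ATF4 heterodimers, TGATGNAAN on either strand, was in 4 members, Trib3, Chac1 and Asns of the PERK-ATF4 arm and Herpud1, against 4.50% of genes, and its form TTGCATCA, which can overlap the former, in Herpud1 and Chac1, against 1.03%. Herpud1 was the 1 member with both an ERSE-II and a C/EBP-ATF match. A match is a stretch of letters, and no binding was measured.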

How the data were processed

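RNA of laser-captured SN and VTA dopamine neurons was amplified with the WT-Ovation Pico system and hybridised to Affymetrix arrays, per the labels' protocols. The deposited values are log2 signals that the authors made by RMA in GeneSpring GX 10.0, per the series' design text. Each probe set has a median of 0 over the 18 arrays (to 5e-07), a centring seen in the values and not given in the sources used here. Beyond the naming of RMA, those sources do not describe background correction. RMA draws arrays to one distribution, so a shift shared by most genes would not be seen and precision is set by 3 arrays a group.

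Of 45101 probe sets, 34945 with 1 symbol, after leaving out 64 control probe sets, were averaged over 18193 genes; 932 with several symbols and 9211 with none were not used. Symbols come from the platform annotation, and 99.7% of them were in RefSeq. Groups and replicate numbers come from the sample titles. One fit of 6 group means (limma 3.58.1 in R 4.3.3, 12 residual and 4.057 prior degrees of freedom) gave moderated two-sided tests, with Benjamini-Hochberg adjustment over all genes and a threshold of 0.05. The comparisons over both regions average the SN and VTA contrasts and were added after the values were seen. The members and gene lists were chosen with earlier results of these data known, so no list was tested. In each comparison, members without overlap between arrays and with an unadjusted p under 0.05 were described with every array, up to 6. In the comparisons over both regions the limit was wider, and Dnajc3 was given there by its ranges. Hspa5, Xbp1, Atf4 and Ddit3 were always described against saline. Other pathway genes were named by the smallest p among those without overlap. Dnajb11, Derl2, Pdia6 and the other members named beyond these rules were described to account for the whole list.

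On simulated data for SN 2 day against saline over 18193 genes, the fit recovered 69 of 100 genes changed by 1 and 94 of 100 changed by 2 on the log2 scale. The simulated noise was independent between arrays and differences under 1 were not simulated. These rates therefore do not give the power for most members. Replicate numbers were checked as pairs: residuals of the SN and VTA array of one treatment and number correlated at 0.0504 to 0.399 (9 pairs, median 0.2245). Arrays of different groups and different numbers gave a median of -0.041 and at most 0.1995 (90 pairs). Whether paired arrays shared mice was not tested. Only for the 10 day groups did all 3 pairs of SN and VTA arrays exceed 0.1. The main fit took all arrays as separate samples in every group. The alternatives that paired the SN and VTA arrays by number did so in every treatment. Alternatives were single probe sets, the probe set of largest SD, only the groups compared, median centring, quantile normalization, array weights, leaving out the 2 arrays of widest spread or each array, and replicate blocks.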

Additional observations from a re-analysis of the deposited data

How the results depend on the processing

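The 8 genes lower after 10 than after 2 days kept their direction under every setting run, in each region and over both, for the comparisons in which each was followed. The number of members called over both regions, 2 as reported, was 1 when the probe set of largest SD stood for a gene, 4 with quantile normalization, 5 with array weights, 1 with SN and VTA arrays as a random block, and 0 with the mean of the SN and VTA array of a number (an alternative chosen after seeing the data). It was 0 to 2 on leaving out 1 array. The replicate block gave 2 members among 25 genes called and changed no other call of a member. Within the SN, array weights called 2 members, Hspa5 and Manf, where the reported count was 0. Genes called over both regions between 10 and 2 days numbered 23, and 5 to 125 under the other settings; within regions the counts, 3 or fewer as reported except 6 for VTA 10 against 2 days, ranged from 0 to 24.

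Medians of the chaperones, the degradation genes, the PERK-ATF4 arm and all members moved beyond the spread between replicates in some comparisons. In SN 2 day against saline that of the PERK-ATF4 arm was -0.058 with single probe sets and -0.0046 without the 2 arrays of widest spread (-0.21 to -0.0046 on leaving out 1 array). In SN 10 day against saline the arm was at -0.041 without those 2 arrays (-0.24 to -0.041 on leaving out 1 array), and the median of all members was -0.091 when a gene's most variable probe set stood for it. With that probe set the arm's median was 0.052 for SN 10 against 2 days, 0.092 over both regions and -0.18 for VTA 2 day against saline, where that of all members was -0.061. The chaperone median was 0.058 with array weights and 0.060 without the 2 arrays in VTA 2 day against saline, -0.23 with the probe set of largest SD in VTA 10 day against saline, and -0.25 without the 2 arrays in VTA 10 against 2 days.

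On leaving out 1 array, the median ran for SN 10 against 2 days from -0.38 to -0.16 in degradation genes and from -0.19 to -0.11 in all members. For SN 10 day against saline it ran from -0.27 to -0.056 in degradation genes and from -0.21 to -0.091 in all members. For SN 2 day against saline it ran from 0.0024 to 0.16 in chaperones and from 0.0024 to 0.086 in all members. For VTA 10 against 2 days it ran from -0.26 to -0.14 in chaperones, from -0.088 to 0.0076 in degradation genes and from -0.11 to -0.038 in all members. For VTA 10 day against saline it ran from -0.23 to -0.14, from -0.12 to -0.020 and from -0.12 to -0.060 in the same lists. For VTA 2 day against saline it ran from -0.057 to 0.093 in chaperones and from -0.039 to 0.036 in all members.

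Signs turned for some of these medians, those between 10 and 2 days included, and among the single genes followed for Atf4, Xbp1 and Ddit3 against saline. Atf4 turned in SN 2 day with array weights (-0.011; -0.032 to 0.083 on leaving out 1 array), in VTA 2 day with the probe set of largest SD (-0.19), array weights (-0.010) and without the 2 arrays (-0.030; -0.030 to 0.11), and in VTA 10 day with median centring (0.00014) and quantile normalization (0.0043; -0.054 to 0.072). Xbp1 turned in SN 10 day with the probe set of largest SD (0.011; -0.46 to 0.015) and in VTA 2 day with that probe set (0.034), quantile normalization (0.028), array weights (0.015) and without the 2 arrays (0.061; -0.099 to 0.061). Ddit3 turned on leaving out 1 array (-0.057 to 0.083 in SN 10 day, -0.088 to 0.31 in VTA 10 day). With its probe set of largest SD it was 0.85 in SN 2 day, 0.73 in SN 10 day, 0.75 in VTA 2 day and 0.41 in VTA 10 day. The cause was not tested. A filter on dim probe sets was not possible, since centred values hold no level.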

Other observations

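Probe sets of one gene did not always give the same picture of the step from 2 to 10 days. Dnajc3, with 5 probe sets, ran from -0.70 to -0.10 in the SN and from -0.55 to 0.0088 in the VTA, where 4 of the 5 were below 0. Xbp1 was even, from -0.56 to -0.39 in the SN and from -0.71 to -0.42 in the VTA over its 4 probe sets. Sdf2l1, Creld2 and Manf rest on 1 probe set each, so that no second probe set bears on them.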
